A study of Homo sapiens with 16 samples.

Results

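GATA2, RUNX1, MYB, LYL1, FLI1, MEIS1, SPI1 and CEBPA are 8 transcription factors of blood progenitors and myeloid cells, and they were examined here for the histone mark H3K27ac in K562 cells. They were chosen by name as 8 of the 19974 protein-coding genes that lie on the autosomes or chromosome X. Each was given a window of the gene body plus 10 kb on either side, and all peaks in these windows with a -log10 q-value of at least 2, so q was 1% or lower, were used. Merging the peaks of all lists gave 151 regions that reach into the 8 windows, out of 170284 regions in the genome. As background, GATA2, RUNX1, MYB and LYL1 were taken as factors active in K562 and SPI1 and CEBPA as silent ones, and FLI1 and MEIS1 were put in neither class.

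H3K27ac is acetylation of lysine 27 of histone H3, a mark of active promoters and enhancers. GATA2, RUNX1, LYL1 and FLI1 belong to the group of factors that maintain blood stem and progenitor cells, MYB keeps progenitors dividing, and MEIS1 is a homeobox partner of HOX proteins in the same cells. SPI1, which encodes PU.1, and CEBPA direct progenitors into the myeloid lineage, and PU.1 and the erythroid factor GATA1 are known to oppose each other. Genes that define a cell's identity often carry broad stretches of H3K27ac over the promoter and the gene body.

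K562 is an established chronic myelogenous leukemia cell line with erythroid features, and chromatin from fixed cells was immunoprecipitated with an anti-H3K27ac antibody. For the fixed-antibody arm, 0.25 µg of antibody was added to each of 7 reactions with amounts of DNA_chrom, the DNA content measured directly in the chromatin, that rose from 0.31 to 20 µg in about 2-fold steps, which gives titers of 32, 16, 8, 4, 2, 1 and 0.5 relative to the titer the study chose as optimal. For the normalized arm, the antibody was scaled to titer 1 in 7 reactions with the same amounts. A library is named by its amount and titer, as in 0.31-T32, and 10-T1a and 10-T1b are the 10 µg libraries of the fixed-antibody and the normalized arm. In the fixed-antibody arm a lower titer always came with more DNA_chrom, and their effects cannot be told apart. The arms were also called against separate inputs, which cannot be told apart from the arm itself. There is 1 library per condition in each arm, and only 10 µg at titer 1 occurs in both, as 10-T1a and 10-T1b. Errors are therefore given as the spread over the libraries of an arm, which may be technical. Trends over 7 libraries take the place of replicates.

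The 14 lists held 64083 to 82143 peaks and covered 32.8 to 75.3 Mb. Coverage was lowest in 0.31-T32, at 32.8 Mb, and reached 65.3 Mb in 10-T1a, while the normalized lists covered at least 65.0 Mb, except 0.31-T1 with 54.4 Mb. Fold enrichment is the authors' peak height over input and moved with the whole list: for the strongest peak of a gene it was called lower at high titer, at an adjusted p under 0.05, in 75.6% of 12425 genes, so fold enrichment is given here mainly as a percentile among the peaks of its own list. A peak has 1 fold enrichment, measured at its summit, which in a broad peak can lie several kb from the gene start. The cell line label was checked on marker genes. The K562 markers GATA1, KLF1, TAL1, HBG1, HBG2, TFRC and LMO2 had a promoter peak in all 14 lists, as did 1 of 5 lymphoid markers, CD79A, and 0 of 5 mature myeloid markers, of which LYZ had a promoter peak in 13 lists. The percent of the window covered by peaks overlapped between these groups. Its median over 14 lists was 24.5% at ELANE, 21.0% at CD14, 10.9% at LYZ, 5.09% at CSF1R and 0% at MPO, the mature myeloid markers. Among the lymphoid markers it ran from 0% at PAX5 to 36.4% at CD79A. Among the K562 markers named, it ran from 20.4% at TFRC to 76.8% at GATA1.

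At the promoter, the 8 factors fell into 3 kinds. GATA2, RUNX1, MYB, LYL1, MEIS1 and SPI1 had a peak within 1 kb of the gene start in all 14 lists, which makes 6 of 8 factors, against 47.6% of all genes with a known strand. CEBPA had one in 8 lists, and FLI1 in none, as was the case for 39.0% of all genes. SPI1, taken as silent, therefore stood with the active factors by this measure, and CEBPA did not. With a stricter -log10 q of at least 5, the number of lists was 13 for RUNX1, 12 for MEIS1 and 2 for CEBPA, and it stayed at 14 for GATA2, MYB, LYL1 and SPI1, against 38.2% of all genes.

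The strength of the promoter peak differed among the 6 factors, with ranges over lists that overlapped. LYL1, a basic helix-loop-helix relative of TAL1, had a promoter peak at the 96.7th to 99.996th percentile of its list, with a median of 99.6, and GATA2, a zinc-finger factor, had a median of 99.1. The median was 97.7 for MYB and 90.3 for SPI1. It was 72.9 for MEIS1 and 71.5 for RUNX1 at the upstream end of the gene. The ranges over lists were 92.9 to 99.9 for GATA2, 85.5 to 99.9 for MYB, 74.9 to 97.3 for SPI1, 23.1 to 85.7 for MEIS1 and 17.3 to 84.8 for RUNX1, so each factor overlapped its neighbours in this order and SPI1 overlapped all the others, while the ranges of LYL1 and GATA2 lay above those of MEIS1 and RUNX1. CEBPA, which encodes a granulocytic leucine-zipper factor, had a median of 32.4 over its 8 lists.

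**Figure D1:**
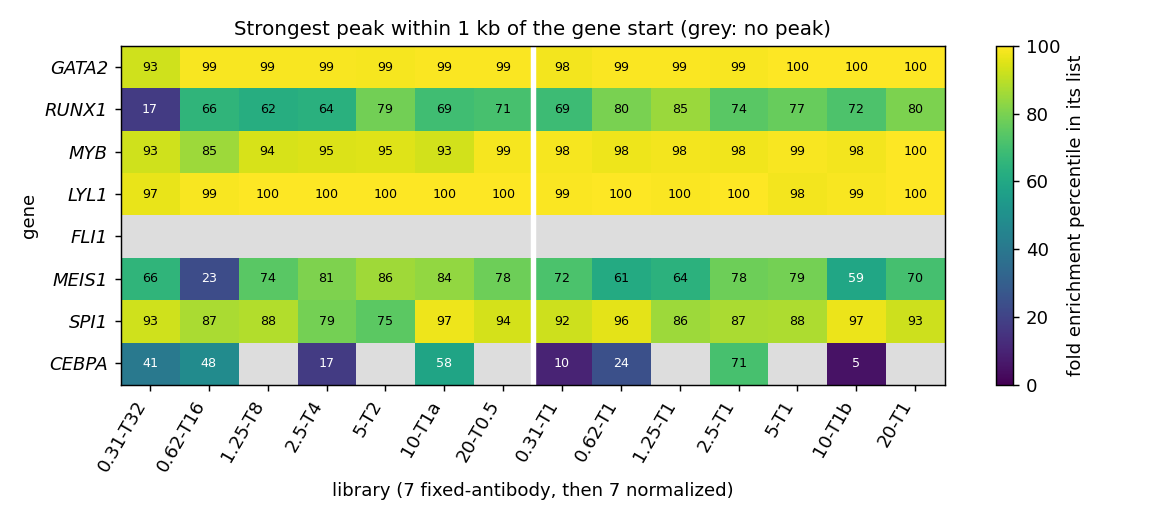
Percentile of the fold enrichment of the strongest peak that reaches within 1 kb of the gene start. Rows are the 8 factors and columns the 14 libraries, 7 fixed-antibody then 7 normalized. LYL1 stays between 96.7 and 99.996, CEBPA has a peak in 8 lists and FLI1 in none (grey).

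Promoter sequences were taken from RefSeq in GRCh38.p14, which has 7 sequences for 6 of the 8 factors. Those of LYL1, the downstream start of RUNX1 and CEBPA are shown because the first holds letters for the erythroid GATA factors, the second is the stronger of the starts of RUNX1, and the third is rich in CpG and had a peak within 1 kb in 8 of 14 lists. Each runs 5′ to 3′ on the minus strand from 250 bases before the start to 50 bases after it, and capitals mark AGATAA or TGATAA on either strand. The positions are chr19:13102809-13103108 for LYL1, chr21:34888650-34888949 for RUNX1 and chr19:33302485-33302784 for CEBPA.
LYL1: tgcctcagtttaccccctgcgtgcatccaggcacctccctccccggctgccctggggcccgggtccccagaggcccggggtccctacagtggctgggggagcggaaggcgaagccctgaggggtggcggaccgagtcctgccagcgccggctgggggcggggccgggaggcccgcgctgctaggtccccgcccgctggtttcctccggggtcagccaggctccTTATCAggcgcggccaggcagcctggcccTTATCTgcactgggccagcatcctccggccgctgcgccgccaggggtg
RUNX1: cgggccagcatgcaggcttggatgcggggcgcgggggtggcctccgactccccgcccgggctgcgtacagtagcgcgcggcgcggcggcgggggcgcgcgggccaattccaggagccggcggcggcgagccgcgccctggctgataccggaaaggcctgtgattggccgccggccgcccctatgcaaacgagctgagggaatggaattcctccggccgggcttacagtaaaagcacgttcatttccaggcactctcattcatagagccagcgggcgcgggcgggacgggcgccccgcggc
CEBPA: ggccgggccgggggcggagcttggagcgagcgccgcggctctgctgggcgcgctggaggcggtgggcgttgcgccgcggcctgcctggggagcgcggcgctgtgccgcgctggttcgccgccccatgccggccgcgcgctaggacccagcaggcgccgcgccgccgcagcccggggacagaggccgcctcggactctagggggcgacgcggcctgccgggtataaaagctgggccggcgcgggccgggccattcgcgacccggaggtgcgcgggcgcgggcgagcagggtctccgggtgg
The LYL1 promoter had 2 GATA matches, and the other 6 sequences had none, while 12.4% of 22132 promoters of this length held at least 1. A match is a description of letters and was not tested as a binding site. The MEIS1 promoter held the ETS letters GGAAGT once and the RUNX letters TGTGGT once, which 23.9% and 11.3% of all promoters held, and the downstream GATA2 promoter held 1 E-box of the letters CAGCTG or CAGATG, found in 27.6%. CEBPA had 50 CpG, more than 98.4% of promoters. Of the 359 promoters with at least as many CpG, 64.9% had a peak within 1 kb in all 14 lists and 24.2% in none, against 48.8% of all promoters in all 14 lists.

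As a share of the window, peaks covered most at LYL1 and GATA2. The median over 14 lists was 65.6% of the window at LYL1, above 99.5% of all genes, 49.3% at GATA2, above 98.0%, and 33.9% at MYB, above 94.2%. Then came SPI1 with 13.2%, MEIS1 with 9.63% and RUNX1 with 8.32%, above 78.4%, 72.0% and 69.0% of genes. CEBPA had 0.869%, FLI1 had 0%, and the median gene had 3.07%. The windows differ in length, from 22.6 kb at CEBPA to 281.5 kb at RUNX1, and the order of the factors was another in covered length. The median over 14 lists was then 23.4 kb at RUNX1, 19.6 kb at MYB, 16.7 kb at GATA2, 15.6 kb at LYL1, 15.3 kb at MEIS1, 5.76 kb at SPI1 and 0.197 kb at CEBPA. RUNX1, taken as active, was thus below SPI1, taken as silent, in the median share of the window, and above it in covered length in every list, with 12.6 to 27.7 kb against 4.46 to 6.93 kb.

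In the fixed-antibody arm, peaks covered less of the window at high titer in 6 of the 7 factors tested, which were GATA2, RUNX1, MYB, LYL1, MEIS1 and SPI1. This was the common pattern of the genome, since 51.9% of the 14566 genes with a peak were also called lower and 0.185% higher. The median r with log2 titer was -0.924 over the 7 factors and -0.833 over all genes. FLI1 had no peak and could not be tested. P-values are from two-sided exact permutation tests over the 5040 pairings of 7 libraries, adjusted by Benjamini-Hochberg over all genes tested, and calls are at an adjusted p under 0.05.

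The trend was steepest at MYB. Its window was covered to 10.7% in the lowest, 26.98% in the median and 35.4% in the highest fixed-antibody library, and to 31.3%, 35.7% and 39.5% in the normalized libraries. The lowest value was that of 0.31-T32, and values of the normalized arm overlapped only with those of the 5-T2, 10-T1a and 20-T0.5 lists. In 16.1% of 14884 genes all 5 fixed-antibody lists of titer over 1 lay below all 7 normalized lists, and MYB was not among them. Coverage fell by 4.13 percentage points per doubling of titer, with r = -0.967 and rho = -0.964 over 7 libraries (exact permutation tests, p = 0.000794 and 0.00278, adjusted p for r = 0.00972). Without the titers 32 and 0.5, r was -0.986 (exact permutation test, p = 0.0167, the smallest that 5 libraries allow).

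MEIS1 had the most regular trend. Its window was covered to 2.20%, 6.96% and 11.3% in the lowest, median and highest fixed-antibody library and to 7.65%, 9.77% and 11.5% in the normalized ones, and in the fixed-antibody arm every step to a lower titer raised it. Here r was -0.984 (exact permutation test, p = 0.000397, adjusted p = 0.00916) and rho -1 (exact permutation test, p = 0.000397, the smallest that 7 libraries allow). Without the titers 32 and 0.5, r was -0.987 (exact permutation test, p = 0.0167). Only 1.48% of the genes tested had a lower r.

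GATA2 changed less in relative terms. Its coverage was 34.5%, 45.5% and 51.7% in the lowest, median and highest fixed-antibody library and 46.1%, 49.9% and 50.5% in the normalized libraries, with r = -0.942 (exact permutation test, p = 0.00278, adjusted p = 0.0146) and rho = -0.929 (exact permutation test, p = 0.00675). The 4 libraries of titers 4, 8, 16 and 32 were below all normalized libraries, but 5-T2 was not. GATA2 was thus also outside the 16.1% of 14884 genes in which all 5 lists of titer over 1 lay below. The share of genes split at titer 4 is not given here. SPI1 had 10.2%, 12.1% and 15.2% in the fixed-antibody arm and 11.1%, 13.2% and 15.9% in the normalized arm, with r = -0.924 (exact permutation test, p = 0.00556, adjusted p = 0.0202) and rho = -0.857 (exact permutation test, p = 0.0238), and its arms overlapped.

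RUNX1 and LYL1 passed more narrowly. RUNX1, the DNA-binding subunit of core-binding factor, was covered to 4.48%, 6.63% and 9.03% in the fixed-antibody arm and to 6.46%, 8.34% and 9.84% in the normalized arm, with r = -0.909 (exact permutation test, p = 0.00913, adjusted p = 0.0263) and rho = -0.929 (exact permutation test, p = 0.00675). LYL1 was covered to 49.9%, 63.0% and 70.0% and to 63.6%, 67.0% and 77.9%, with r = -0.857 (exact permutation test, p = 0.0202, adjusted p = 0.0422) and rho = -0.857 (exact permutation test, p = 0.0238). Without the titers 32 and 0.5, r was -0.826 for RUNX1 and -0.811 for LYL1 (exact permutation tests, p = 0.1 and 0.117), against -0.954 for GATA2 and -0.921 for SPI1 (exact permutation tests, p = 0.0333 for both). CEBPA had 0% to 3.75% coverage, with r = 0.525 and rho = 0.556 (exact permutation tests, p = 0.226 and 0.212, adjusted p for r = 0.277).

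The direction depended on the scale for GATA2, LYL1 and SPI1, and RUNX1 had a trend on 1 scale only. When the covered bases of a window were taken as a share of all bases covered in that list, r with log2 titer was 0.963 for GATA2, 0.970 for LYL1, 0.862 for SPI1 and 0.00551 for RUNX1, so the windows of GATA2 and LYL1 held a larger share of the list at high titer. In all, 704 genes were called in place of 7583 of the 14566 tested. How many of the 704 rose at high titer is not given here. The larger share is therefore not read as particular to these factors. On this scale MYB kept a negative r, -0.823, with an adjusted p of 0.0523 (exact permutation test), and MEIS1 kept its call. On the percent-covered scale, 2 factors, MYB and MEIS1, kept their calls without 0.31-T32 and without 2.5-T4, where 1679 and 2538 genes were called in place of 7583. The numbers of genes tested there are not given here.

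**Figure D2:**
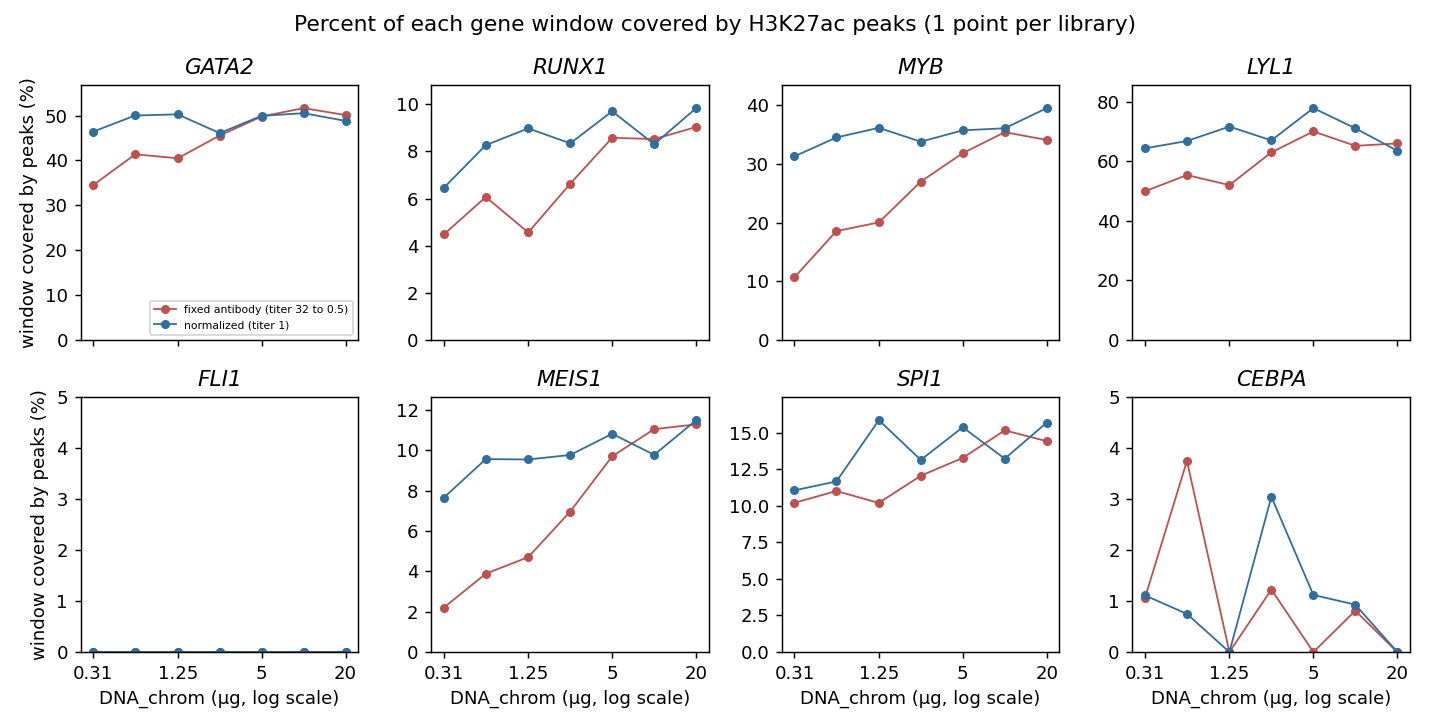
Percent of each gene window covered by peaks against DNA_chrom (log scale), with 1 point per library, red for the fixed-antibody arm, where titer falls from 32 to 0.5 along the axis, and blue for the normalized arm at titer 1. MYB rises from 10.7 to 35.4 in red, the normalized libraries lie between 31.3 and 39.5, and FLI1 is at 0 throughout.

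In the normalized arm, where titer was constant, none of the 7 factors tested had a called trend with DNA_chrom (exact permutation tests with Benjamini-Hochberg adjustment), nor had any of 14571 genes, 0.0% being called. At an unadjusted p under 0.05, 20.1% of genes rose with DNA_chrom, and so did MEIS1, MYB and RUNX1. The r was 0.850 for MEIS1, 0.837 for MYB and 0.744 for RUNX1 (exact permutation tests, p = 0.0135, 0.0143 and 0.0492, adjusted p = 0.161, 0.164 and 0.247), with rho of 0.929, 0.714 and 0.750 (exact permutation tests, p = 0.00675, 0.0881 and 0.0663). Without the 0.31 and 20 µg libraries these r fell to 0.506, 0.409 and 0.204 (exact permutation tests, p = 0.442, 0.467 and 0.75), so the relations rest on those libraries. For SPI1, GATA2, LYL1 and CEBPA, r was 0.651, 0.324, 0.192 and -0.139 (exact permutation tests, p = 0.122, 0.467, 0.684 and 0.785).

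**Figure D3:**
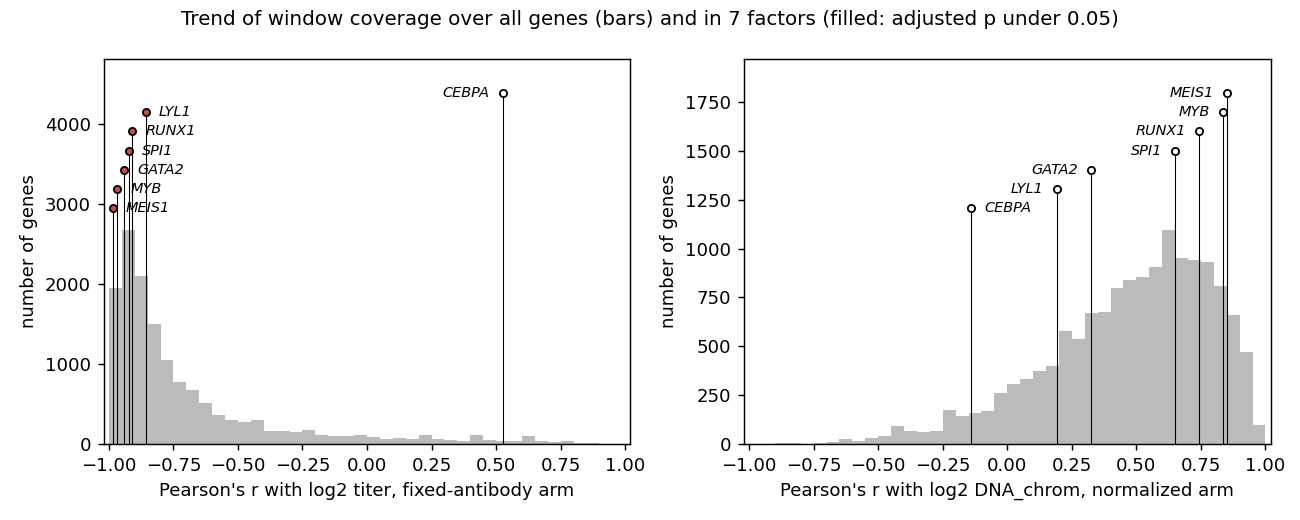
Number of genes (bars) by Pearson's r of window coverage with log2 titer in the fixed-antibody arm (left) and with log2 DNA_chrom in the normalized arm (right), with 7 factors marked, filled where the adjusted p was under 0.05. In the left panel 6 factors lie between -0.984 and -0.857 and CEBPA at 0.525, and in the right panel no factor is filled.

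At matched DNA_chrom, the normalized list covered more of the MYB, MEIS1, RUNX1 and SPI1 windows at 6 of 6 amounts with different titers, as it did in 41.8% of 14830 genes. The mean difference was 11.5 percentage points for MYB (3.88 to 20.6), 3.35 for MEIS1, 2.04 for RUNX1 and 1.93 for SPI1. For each of these the exact sign-flip permutation test gave p = 0.03125, the smallest it can give with 6 pairs, and an adjusted p of 0.0736, so none was called, and the same held for all genes. LYL1 and GATA2 were higher in the normalized list at 5 of 6 amounts, by 9.15 and 4.96 on average (exact sign-flip permutation test, p = 0.0625 and 0.156). CEBPA had a mean difference of -0.00221. Between 10-T1b and 10-T1a, which share amount and titer, the difference was 0.669 for MYB, -1.27 for MEIS1, -0.219 for RUNX1, -1.94 for SPI1, 5.89 for LYL1 and -1.13 for GATA2, so that of LYL1 was large against its mean over the matched amounts and that of SPI1 was as large with the opposite sign. The change per doubling of DNA_chrom did not differ detectably between the arms for any factor (exact permutation test swapping the arms within amounts, p of at least 0.0625, adjusted p = 0.879), and 0.0% of genes were called.

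The percentile of the strongest window peak showed no called trend with titer in 6 factors or in any of 12425 genes (0.0% called, and 9.42% lower at an unadjusted p under 0.05). At LYL1 it rose at every step to a lower titer, from 96.7 in 0.31-T32 to 99.996 in 20-T0.5, with rho = -1 and r = -0.747 (exact permutation tests, both p = 0.000397, adjusted p for r = 0.290). GATA2 had r = -0.754 (exact permutation test, p = 0.0246, adjusted p = 0.381), with 97.1 in 0.31-T32 and 98.6 to 99.3 in the others. In the normalized arm, none of 12924 genes was called (0.0%), and GATA2 and RUNX1 had r of 0.780 and 0.707 with log2 DNA_chrom (exact permutation tests, p = 0.0363 and 0.0401, adjusted p = 0.739 and 0.755), where 4.91% of genes rose at an unadjusted p under 0.05.

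Within the loci, 20 of the 151 regions had a peak in all 14 lists, or 13.2%, against 10.8% of all regions, and 66 had one in 1 list, or 43.7%, against 46.3%. These shares are near the background. Few regions split by titer: 3 had a peak in at least 6 normalized lists but none at fixed antibody with a titer over 1, at 26.8 to 27.4 kb into MYB and at 165.1 to 165.8 and 184.5 to 185.5 kb into RUNX1, against 0.816% of all regions. The converse, at least 4 of the 5 lists of titer over 1 and no normalized list, held for 1 region, 18.5 to 19.2 kb into SPI1, against 0.201% of all regions. RUNX1 had 58 regions, MEIS1 27, MYB 24, SPI1 20, GATA2 11, LYL1 6 and CEBPA 5. The reference used gives gene spans without exons, so positions are given in GRCh38 as distances from the gene start. A region is named by its extent over all 14 lists and can reach past a window's edge.

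GATA2 was covered by 1 domain. The region chr3:128479829-128497749, of 17921 bp, ran from 4548 bp upstream of the gene start to 13372 bp into the gene, over both annotated starts of GATA2 and that of the antisense gene GATA2-AS1, and had a peak in all lists. It was broken into shorter peaks at high titer: the longest peak was 4386 bp in 0.31-T32, 5274 bp in 0.62-T16 and 5391 bp at titer 8, against 9600 to 14786 bp in the other 11 lists. Peaks were shorter over the whole list too, with 64083 peaks over 32.8 Mb in 0.31-T32 and 79433 over 65.3 Mb in 10-T1a. How many genes split in this way is not given here, so the split is not read as particular to GATA2. The strongest summit lay 1104 to 4534 bp inside the gene, between the upstream start and the downstream start at 4671 bp. The strongest other region over 2 kb from the start, chr3:128498491-128499467 upstream, had a peak in 5 lists.

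MYB had a domain of 17984 bp over its start and the first part of the gene, chr6:135179948-135197931, from 1360 bp upstream to 16623 bp into the gene. The longest peak was 704 bp in 0.31-T32, 2147 to 6758 bp in the rest of its arm and 6779 to 15921 bp in the normalized arm. How many genes have arms that do not overlap in this length is not given here. The difference is therefore not read as particular to MYB. How many genes shift their strongest summit between the arms is not given here. At MYB the position of the strongest summit differed between the arms, except in 0.31-T32. It lay 11384 to 11460 bp into the gene in all 7 normalized lists, and in the fixed-antibody lists at 11436 bp in 0.31-T32, 9644 bp in 0.62-T16, 1505 bp at titer 8 and within 424 bp of the start in the 4 lists of titer 4 and below. The pair at equal titer also differed, with 225 bp in 10-T1a and 11448 bp in 10-T1b. A further region beyond the 3′ end, chr6:135228740-135233361 at 47.4 to 52.1 kb from the start, lies in the long non-coding gene LOC105378011 and mostly outside the window, and had a peak in all 14 lists with a fold enrichment of 4.57 to 12.3.

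At LYL1, 3 of 6 regions had a peak in all lists. The region over the gene body, chr19:13091492-13102745, begins 113 bp inside LYL1 and runs into the neighbouring gene NFIX, and the next, chr19:13102927-13106614, lies 69 to 3756 bp upstream of LYL1 towards TRMT1, which encodes a tRNA methyltransferase. Signal in these windows can therefore belong to NFIX or TRMT1 as well as to LYL1. The 181 bp between both regions, from 68 bp upstream of the start to 112 bp inside the gene, had no peak in any list and hold both GATA matches of the promoter shown above. Such a gap of at most 300 bp was common, at 73.5% of 3909 neighbouring pairs of regions shared by all 14 lists. The balance of both sides differed between the arms: the fold enrichment of the gene-body region over that of the upstream region was 0.763, 1.47 and 2.27 in the lowest, median and highest fixed-antibody list and 0.480, 0.609 and 0.741 in the normalized lists, with no overlap. The arms did not overlap in this ratio in 6.45% of neighbouring pairs, and this pair was singled out after its values were seen. At equal titer, the gene-body region had a fold enrichment of 28.8 in 10-T1a and 13.4 in 10-T1b, and the upstream region 12.7 and 20.1.

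**Figure D4:**
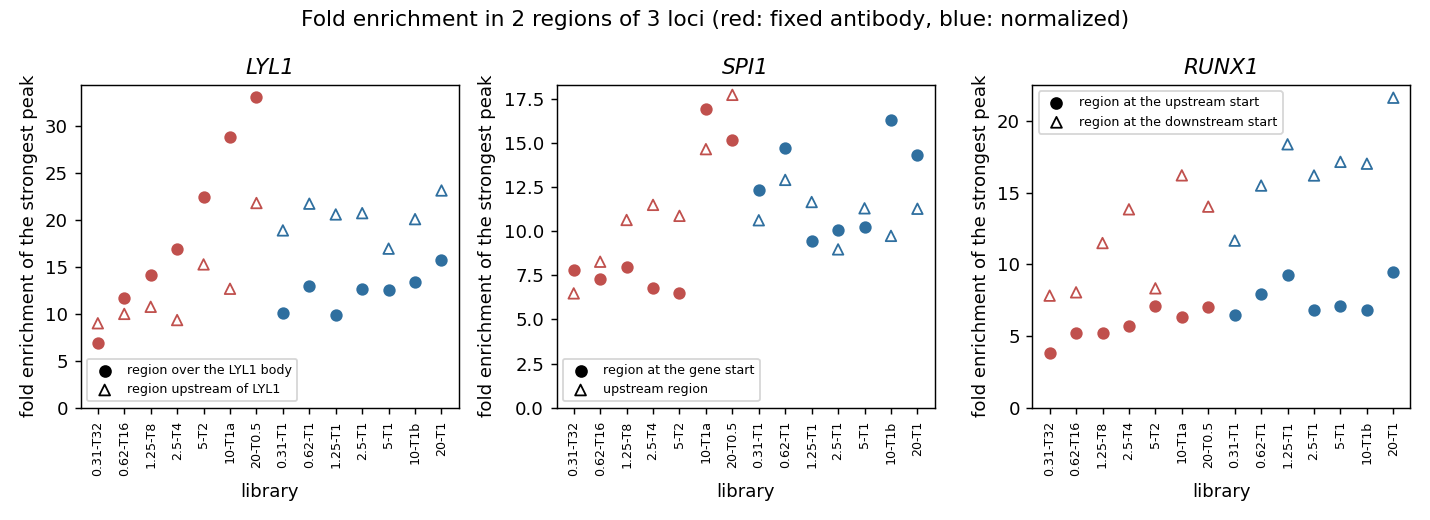
Fold enrichment of the strongest peak in 2 regions each of LYL1, SPI1 and RUNX1 (y axis) in the 14 libraries (x axis), red for fixed antibody and blue for normalized. In LYL1 the gene-body region is the higher one in 6 of 7 fixed-antibody lists and the upstream region in all 7 normalized lists, and in RUNX1 the downstream start lies above the upstream start in every list.

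RUNX1 was marked at many separate sites spread over a gene of 261.5 kb, and 8 of its 58 regions had a peak in all lists. The strongest region, chr21:34885821-34891563, lies at the annotated downstream start, 160603 bp into the gene. A peak within 1 kb of this start had a fold enrichment of 7.82 to 16.2 at fixed antibody and 11.7 to 21.6 in the normalized arm, with a median percentile of 97.2, while the upstream start had 3.79 to 7.08 and 6.50 to 9.46 with a median percentile of 71.5. The downstream start was the higher one in 14 of 14 lists. Other regions shared by all lists lay 907 to 2868 bp upstream of the gene start and 19.1 to 24.2 kb, 49.1 to 54.7 kb, 64.9 to 66.7 kb and 138.1 to 143.4 kb into the gene. The region at 22.5 to 24.2 kb, chr21:35025098-35026788, had a fold enrichment of 7.19 to 13.8 at fixed antibody and 9.75 to 14.1 in the normalized arm, and its lowest value in each arm was above the highest one at the upstream start.

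MEIS1 had a peak at its start in all lists, chr2:66433678-66438469, and a cluster of regions inside the gene. The strongest, chr2:66486725-66492783, lay 51.6 to 57.7 kb from the start and had a peak in 13 lists, with a fold enrichment of 5.15 to 12.9 at fixed antibody and 7.26 to 12.4 in the normalized arm. Together with 2 adjacent regions it extended from 41.9 to 57.7 kb. A region at 29.5 to 31.7 kb also had a peak in all lists. The longest peak in the window was 609 bp in 0.31-T32 and 806 bp in 0.62-T16, and 1493 to 5366 bp in the other lists. No share of all genes is given for this difference. The strongest summit lay in this cluster, 46067 to 56094 bp from the start, in all 7 normalized and in 4 fixed-antibody lists.

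SPI1 was marked at its start and upstream of it. The start region, chr11:47373680-47379762, from 1215 bp upstream to 4867 bp into the gene, had a fold enrichment of 6.49 to 7.94 in the 5 fixed-antibody lists of titer over 1 and of 9.44 to 16.3 at normalized antibody, while 10-T1a had 16.9 and 20-T0.5 had 15.1. As percentiles these were 74.9 to 92.8, 85.5 to 97.0, 97.3 and 93.6, so the ranges overlapped. A second region, chr11:47387877-47397711, lies 9.33 to 19.2 kb upstream in SLC39A13-AS1, mostly outside the window, and had a peak in all lists with its summit 15.3 to 16.7 kb upstream of SPI1. Of the 20 regions of the window, 13 had a peak in 1 list, and these lay on both sides of the start region.

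**Figure D5:**
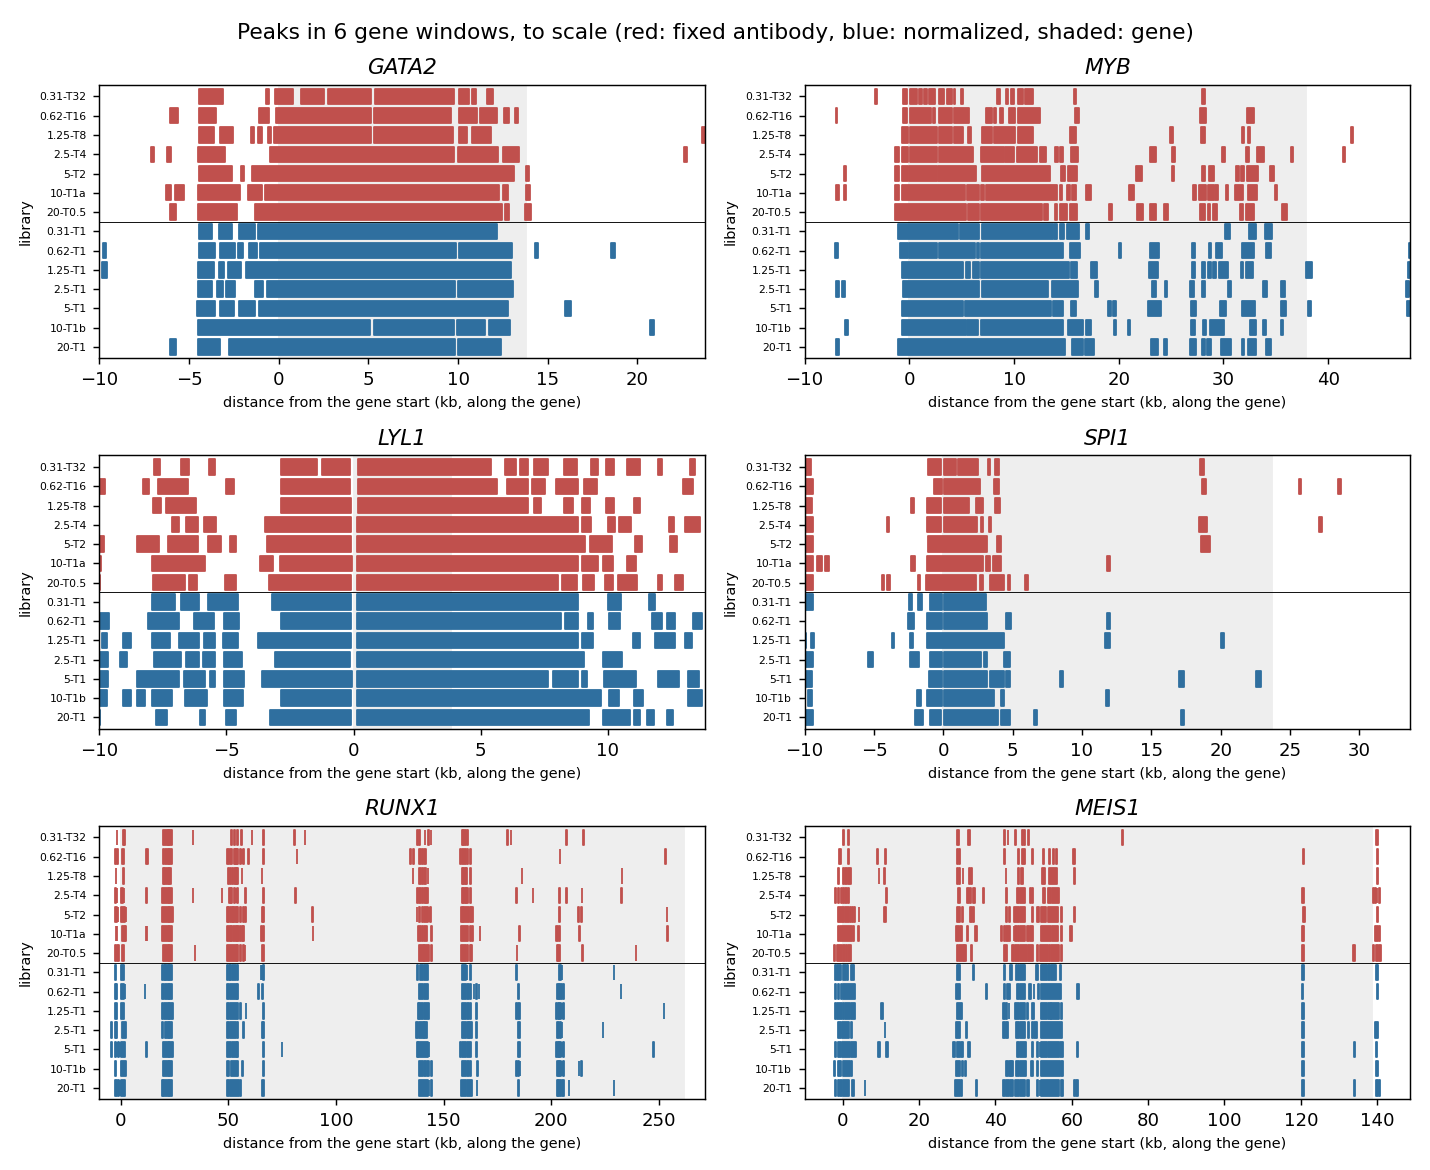
Peaks of GATA2, MYB, LYL1, SPI1, RUNX1 and MEIS1 in the 14 libraries (rows, red for fixed antibody and blue for normalized) against the distance from the gene start in kb along the gene, with the gene shaded. The GATA2 and MYB domains are split into shorter peaks in the top rows, with longest peaks of 4386 and 704 bp in 0.31-T32, and RUNX1 and MEIS1 show separate sites inside the gene. How many other genes show such a split is not given.

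CEBPA and FLI1 were the least marked. CEBPA had window peaks in 9 of 14 lists, 1 or 2 in each, none longer than 544 bp. The most frequent region, chr19:33302048-33302497, 37 to 486 bp inside the gene, had a peak in 5 lists with a fold enrichment of 3.32 to 6.26, and the region over 2 kb from the start with the highest mean percentile, chr19:33292594-33293137, in 1 list. The percentile of its strongest peak ranged from 4.92 to 70.7. FLI1, an ETS factor of megakaryocytes and endothelium, had no peak in the lists analysed here, including those with a q-value above 1%. The nearest peak in any list was 2204 kb upstream and 1050 kb downstream, a span of 3382 kb that holds 8 protein-coding genes, FLI1 and ETS1 among them, none of them with a peak. Spans of at least 3000 kb without a peak numbered 67 in the genome and held 274 protein-coding genes, and no window peak was found for 24.9% of all genes and 28.1% of the 2505 genes at least as long as FLI1. Whether this reflects the state of FLI1 was not tested.

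Other factors of the progenitor and myeloid network were described by the same measures. Of 14 other progenitor factors, 8 had a promoter peak in all lists and 5 in none, against 47.6% and 39.0% of all genes, and 7 of 12 tested were called lower at high titer, against 51.9%. Of 10 other myeloid factors, 2 had a promoter peak in all lists and 4 in none, and 4 of 8 tested were called lower. These shares of called genes are near the background. The median coverage was 17.8% for the progenitor and 4.43% for the myeloid factors, against 3.07% for all genes. By the percentile of the strongest window peak, set to 0 in a list without one, the highest medians were 98.7 for GFI1B, 97.5 for IKZF1 and NFE2 and 97.3 for CEBPB, factors of erythroid and megakaryocytic, lymphoid and progenitor, erythroid, and granulocytic or inflammatory programs. The lowest were 0 for ERG, HOXA9, IRF8, IRF4 and KLF4, of which KLF4 had a promoter peak in 5 lists.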

How the data were processed

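H3K27ac peak lists of 14 K562 ChIP libraries were analysed, and no peak list of the 2 inputs was used. In Partek Flow, the authors aligned paired reads and ran MACS2 on every library by itself. The submitters' processing notes name BWA 0.5.9, CASAVA 1.4 and hg38, whereas the paper names hg19, and positions were read as GRCh38 from the contig names. Each deposited peak carries a fold enrichment (a ratio over input) and significance as -log10 p and -log10 q. The lowest deposited -log10 q is 1.30, and peaks of at least 2 were used. Read depth, which the paper gives for each library, is not part of the lists and was not used here.

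Percent of window covered, peaks within 1 kb of the gene start, the percentile of the strongest peak in its own list and merged regions (peaks sharing or touching bases) were computed. Gene spans came from RefSeq GRCh38.p14, and the strand, known for 19630 of 19974 genes, from RefSeq promoters or, by symbol, from GENCODE. Trends were tested by exact permutation over 5040 pairings, and matched differences by exact sign flips over 64 patterns, with arms paired by the amount of DNA_chrom in the labels. Benjamini-Hochberg adjustment ran over all genes tested, and the threshold was 0.05. The factors and gene lists were chosen with earlier results of these data known. All 8 factors are named, with the region of highest mean percentile and the strongest over 2 kb from the start. From the other lists, the 4 genes of highest and the 4 of lowest median percentile are named, with ties. A further cell line marker is not reported here. Functions were tested on simulated data. Alternatives were other q-values, windows, scales and merging distances, Spearman's rho, unpaired arms and leaving out each library. Python 3.11.15, numpy 2.4.6, scipy 1.17.1 and pandas 2.3.3 were used.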

Additional observations from a re-analysis of the deposited data

Results flagged for a closer look

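In groups of 7 libraries, 6 of 38 checks found a highest or lowest library far from the others by Dixon's criterion, which chance alone meets in about 1 of 20 groups. The percentile of the strongest GATA2 peak was 97.1 in 0.31-T32, while the other fixed-antibody lists had 98.6 to 99.3. That of LYL1 was 96.7 in 0.31-T32, against 99.2 to 99.996 in the other fixed-antibody lists. Among the normalized lists, the percentile of LYL1 was 98.1 in 5-T1, against 99.2 to 99.7, and that of RUNX1 was 90.9 in 0.31-T1, against 96.9 to 99.3. CEBPA coverage was 3.75% in 0.62-T16, where the next fixed-antibody list had 1.23%, and 3.04% in 2.5-T1, where the next normalized list had 1.12%. The causes were not tested.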

How the results depend on the processing

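Of 481 recomputed values for single factors, 445 kept their direction and their side of the threshold, and 70 of 77 recomputed counts stayed within 1.5 times. With covered bases as a share of all covered bases in the list, r with titer became 0.963 for GATA2, 0.00551 for RUNX1, 0.970 for LYL1 and 0.862 for SPI1, with 3 factors called. What share of all genes rose with titer in this measure is not given here. On that scale r with DNA_chrom was -0.459 for MYB, and the matched difference was -25.0 bases per 1000000 covered bases for RUNX1 and -21.7 for SPI1. With log2 fold enrichment in place of the percentile, r with titer was -0.868 for RUNX1, and 5 factors were called in place of 0. On that scale 75.6% of 12425 genes were called lower at high titer. The number of factors called for titer was 2 to 5 with a library left out, lowest without 0.31-T32 and without 2.5-T4. With 6 libraries fewer pairings exist, and adjusted p-values rise by construction. Without the pairing by DNA_chrom, that is with no replicate block, 1 factor was called in the matched comparison, MYB, with an adjusted p of 0.0486 (exact permutation test), in place of 0. The share of all genes called without the pairing is not given here, so the call is not read as particular to MYB. The pairing comes from the amounts in the labels and changed no other call. MEIS1 kept its titer call under all 15 alternatives and MYB under 14, while LYL1 lost it under 7, RUNX1 and SPI1 under 6 each and GATA2 under 3, besides the share of covered bases. The regions numbered 89 when peaks within 500 bp were merged and 57 at a -log10 q of at least 5. The causes were not tested. The paper reports read pairs, mapping and complexity for each library, and these were not used here. There, 0.31-T1 has the lowest share of uniquely mapped pairs and the lowest complexity. Replicate error per condition is not known, so a missing peak does not show absence of the mark.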
